A study of Mus musculus with 5 samples.

Results

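The genes of 3 enzyme groups that attach a small polar group to drugs, hormones, bile acids and toxins were followed in mouse hepatocytes: UDP-glucuronosyltransferases (Ugt), sulfotransferases (Sult) and soluble glutathione S-transferases (Gst). Members were all gene symbols in the count tables that begin with Ugt1, Ugt2, Ugt3, Sult, Gsta, Gstm, Gstp, Gstt, Gstk, Gsto or Gstz, without pseudogene symbols containing -ps. This gave 64 of the 31053 genes, of which 21 were Ugt, 21 Sult and 22 Gst genes.

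Liver cells of C57BL/6J mice had been profiled with a droplet kit (10x v3), which counts unique molecular identifiers (UMIs), 1 for each captured RNA molecule, near the 3′ end. There were 5 libraries, each the only one of its group: normal mice of postnatal day 14 (P14), adults labelled as control, and adults taken 24 h, 48 h or 96 h after partial hepatectomy (PHx), which removes most of the liver and was done at 8 weeks of age. The labels' treatment text counts the adult control among the operated animals, while its title and source call it a control, and here it serves as the control. That text gives 8 weeks as the age for all 4 adult libraries, the control included. Sex and number of animals are not in the labels. The end of the description code differs between the adult control and the other 4 libraries, and any batch it stands for cannot be told apart from the control group. With 1 library per group there is no replicate check on any difference, no test was made, and every interval is a 95% interval that covers counting error only.

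In the liver, conjugation is the second step of detoxification: a Ugt joins glucuronic acid from UDP-glucuronic acid, a Sult joins sulfate from PAPS, and a Gst joins glutathione to its substrate. The products are more soluble and leave the hepatocyte through transporters into bile or blood. Many of these genes lie in clusters of similar copies, and in mice several differ between the sexes and between the zones of the liver lobule, which run from the portal tracts (periportal) to the central vein (pericentral).

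Hepatocytes were barcodes with at least 5000 UMIs, 10 to 30% mitochondrial UMIs and at least 1% of UMIs from Alb, Apoa1 and Ttr. P14 contributed 2106 of them, the adult control 925, and the libraries after PHx 1170 (24 h), 719 (48 h) and 771 (96 h), out of 2549 to 3624 barcodes of that depth per library, and they held 13316829 to 64576753 non-mitochondrial UMIs. The mitochondrial limits acted unevenly. Of the barcodes of that depth, 1703 were over 30% at 96 h, against 420 to 501 in the other libraries. Barcodes under 10% that met the other conditions numbered 684 at 96 h and 124 to 328 in the other libraries. Levels are CPM, counts scaled so that the non-mitochondrial UMIs of a library's hepatocytes sum to 1e6, and values after PHx stand in the order 24 h, 48 h, 96 h. The hepatocyte markers outside the selection rule summed to 26633 to 35119 CPM, and every one of the 7 passed the filter below. The summed markers were at most 12.5 CPM for endothelial cells, 5.03 for macrophages, 15.9 for T or NK cells and 3.94 for B cells. Neutrophil markers reached 187 CPM at 48 h and 100 at 24 h against 10.4 in the adult control, and their part in the results below was not tested. Erythroid markers were 55.8 to 243 CPM, cholangiocyte markers 6.44 to 33.8 and mesenchymal markers 3.74 to 46.1, with Col1a1 at 0 in all 5 libraries. Of the barcode sequences, 2 were shared by the P14 and adult control hepatocytes and 1 by those of P14 and 48 h. Free RNA was 1328 UMIs per empty droplet in the adult control, against 290 to 795 in the other libraries. Of the member genes, 38 had a mean of at least 5 CPM over the 5 libraries, as did 8674 genes in all. The other 26 comprised 5 with no UMI in any library and 21 with some UMIs, the highest of which reached 20.7 CPM.

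The 3 groups differed in their overall course. Summed over all Ugt genes, the level was 3160 CPM (95% interval 3130 to 3190) in the control, 1775, 1530 and 2285 after PHx, and 1089 in P14. Summed over all Gst genes it was 4104 CPM (4069 to 4138) in the control, 4754, 4223 and 6816 after PHx, and 2814 in P14. Summed over all Sult genes it was 1818 CPM in the control, 1269, 832 and 1231 after PHx, and 2470 in P14. Thus the summed Ugt and Sult levels were below the control at all 3 times after PHx, while the summed Gst level was above it at 24 h and 96 h and 1.03-fold of it at 48 h (1.02 to 1.04). Without Gstp1, whose limits are given below, the Gst sum was 3661 CPM in the control and 4160, 3027 and 5256 after PHx, which put 48 h below the control. The lower Sult sum came from Sult2a8, since the Sult1 sum was 377 CPM in the control and 1149, 708 and 575 after PHx, above it each time. The 3 comparisons share the adult control library, so they are not independent of each other.

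**Figure D1:**
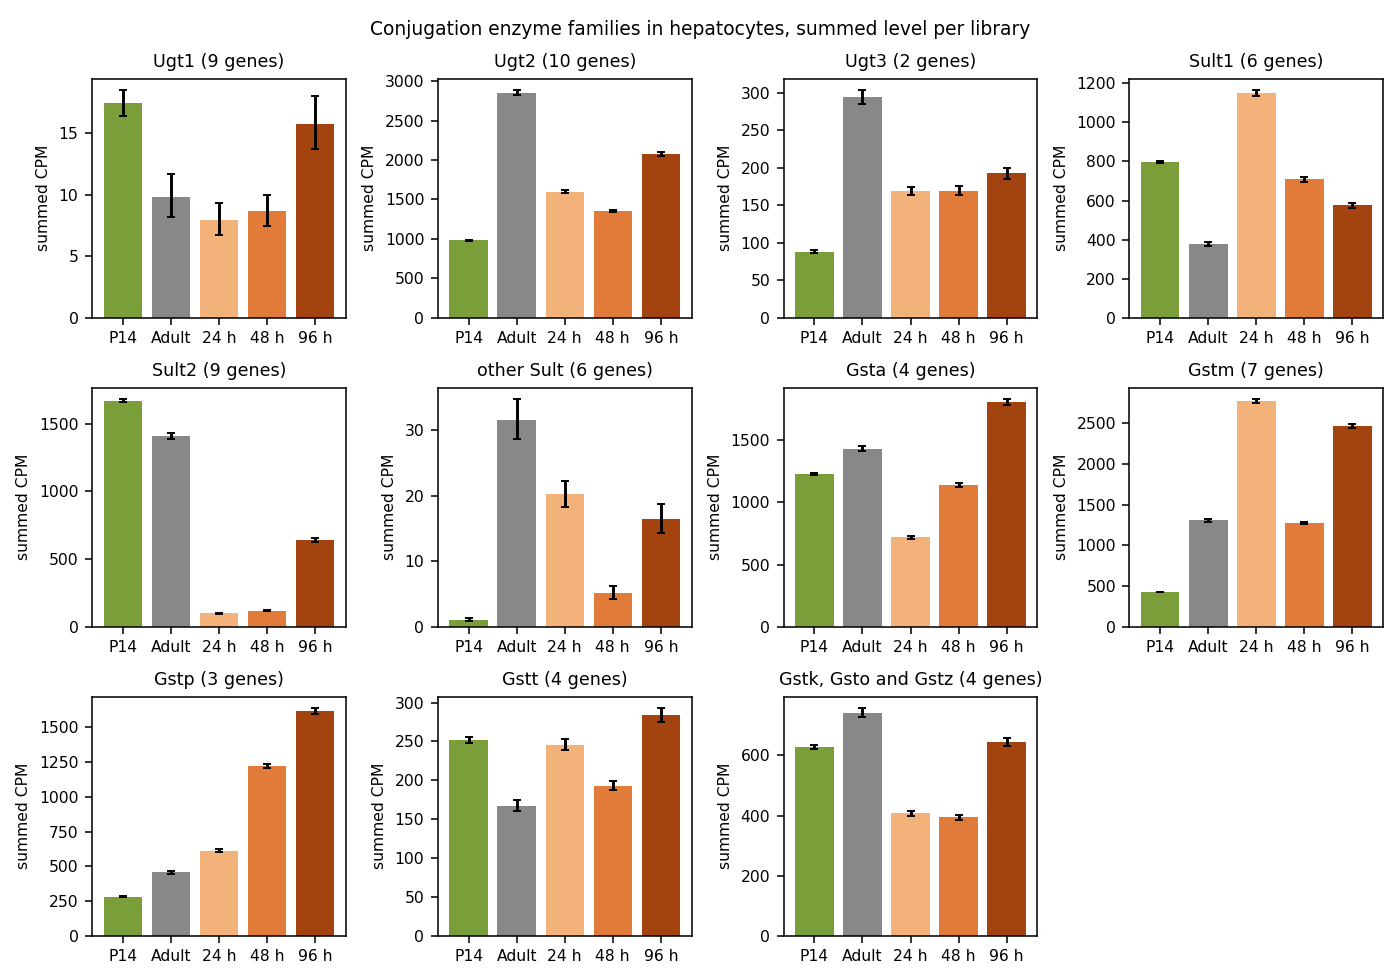
Summed level (CPM) of each conjugation family in hepatocytes of the 5 libraries; bars start at 0 and error bars are exact 95% Poisson intervals, which cover counting error only. The Ugt2 sum was highest in the adult control, the Sult2 sum was low at 24 h and 48 h, and the Gstp sum was highest at 96 h.

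Single genes were compared with the adult control as log2((CPM + 1)/(CPM + 1)), which understates the change of low genes, and a gene was counted as higher or lower when this passed 2-fold. At 24 h, 5 of the 38 members were lower, against 6.5% of all genes, and 7 were higher, against 7.77%. At 48 h, 6 were lower, against 7.19%, and 6 were higher, against 7.44%. At 96 h, 3 were lower, against 1.56%, and 9 were higher, against 4.31%. By group, 2 of 9 Ugt genes were lower at 24 h, 3 at 48 h and 2 at 96 h, and no Ugt gene was higher at any of these times. Of 19 Gst genes, 6 were higher and 2 lower at 24 h, 5 higher and 1 lower at 48 h, and 9 higher and 0 lower at 96 h. Of 10 Sult genes, 1 was lower and 1 higher at 24 h, 2 lower and 1 higher at 48 h, and 1 lower and 0 higher at 96 h. These 10 include 5 that passed the filter through P14 and were at most 3.13 CPM in every adult library, so they could hardly be counted after PHx and their ratios enter the median of the members. The median log2 ratio of the members was 0.00, -0.28 and 0.32 at the 3 times, where that of all genes was 0.00, -0.07 and 0.05.

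**Figure D2:**
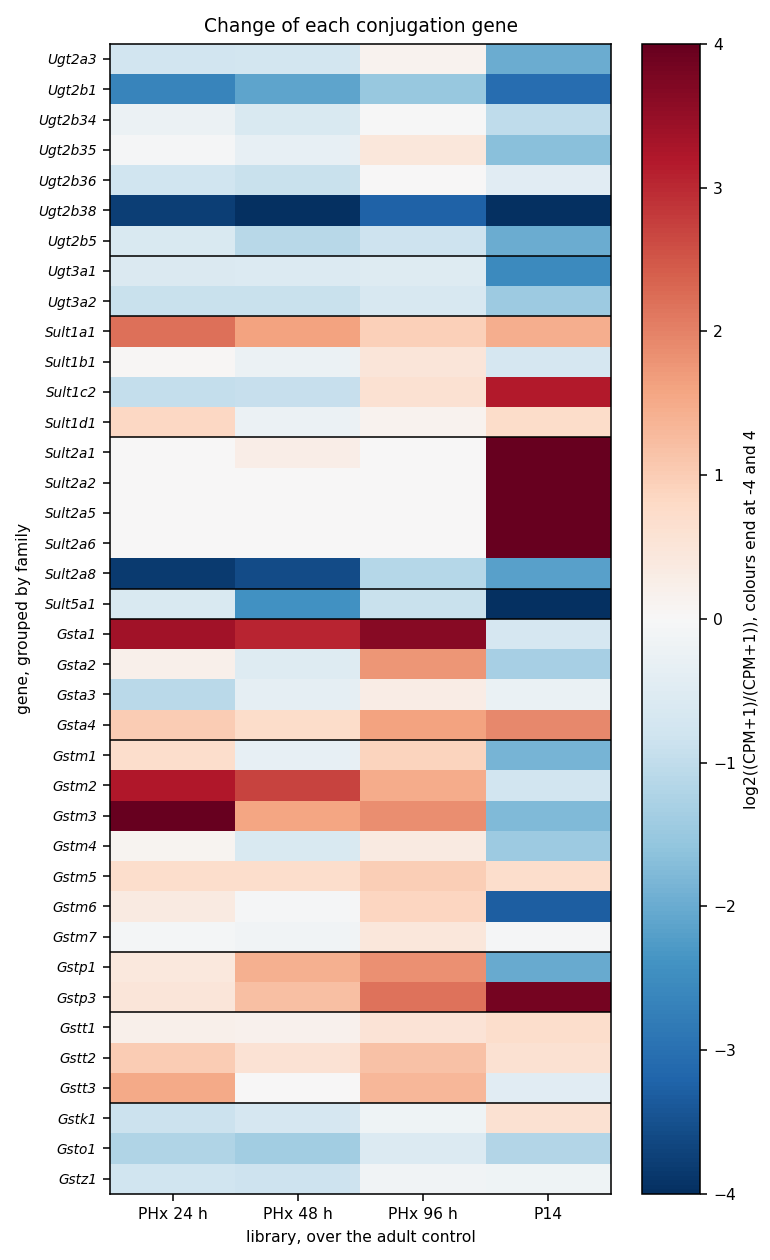
Log2 ratio over the adult control for the 38 conjugation genes with a mean of at least 5 CPM (rows, grouped by family) in the other 4 libraries (columns); red is higher and blue lower, and colours end at -4 and 4. Ugt2b1, Ugt2b38 and Sult2a8 are blue in all 4 columns, whereas Gstm2 and Gstm3 are red after PHx and blue in P14.

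The Ugt2 genes, which glucuronidate steroids, bile acids and many drugs, sit together on chromosome 5 between 86889770 and 87490871 (GRCm38.p6), yet they differed widely in how far they fell short of the control. Ugt2b1 was at 650 CPM in the control, 104, 149 and 226 after PHx, and 77.0 in P14. It was thus highest in the control and stood 6.25-fold lower at 24 h (interval 5.96 to 6.57), 4.37-fold lower at 48 h and 2.88-fold lower at 96 h. Ugt2b38 was at 59.6 CPM in the control (794 UMIs) and at 3.43, 0.86 and 5.43 after PHx, and no UMI was found in P14, where 3 UMIs would be 0.046 CPM. Its level was 17.4-fold lower at 24 h (13.5 to 22.6), 69.0-fold lower at 48 h (43.4 to 117) and 10.98-fold lower at 96 h (8.63 to 14.1). The neighbouring Ugt2b37, named after its values were seen because it is too low for the filter, was at 12.5 CPM in the control and at 2.87, 1.97 and 1.93 CPM at 24 h, 48 h and 96 h, with no UMI in P14.

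Other genes of the same cluster differed less from the control. Ugt2b5 was at 838 CPM in the control, 546, 392 and 474 after PHx, and 210 in P14. It stood 1.54-fold lower at 24 h (1.496 to 1.58) and 2.14-fold lower at 48 h (2.08 to 2.20), a log2 ratio of -1.10 that was -0.60 in barcodes of under 10% mitochondrial UMIs. In that alternative, also used for genes below, 34.7%, 31.4% and 19.3% of all genes were at least 2-fold lower at 24 h, 48 h and 96 h. Which cells these barcodes hold was not tested. Ugt2b36 was at 528 CPM in the control, 307 at 24 h and 286 at 48 h, and at 528 again at 96 h, a ratio of 1.00 (0.968 to 1.03). Ugt2b34 was at 448 CPM in the control and at 378, 295 and 440 at the 3 times. The 2 Ugt3 genes, whose enzymes use sugar donors other than UDP-glucuronic acid, followed a flatter course: Ugt3a2 was at 205 CPM in the control and at 109, 110 and 131 after PHx, and Ugt3a1 at 89.1 and at 59.6 to 61.8. The median log2 ratio of the 9 Ugt genes that passed the filter was -0.76, -0.88 and -0.52 after PHx. That of all genes was 0.00, -0.07 and 0.05.

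Because Ugt2b38 and Ugt2b5 differed so much in their ratios, the 250 bases before their start sites are shown with those of Ugt2b37, from the RefSeq table (GRCm38.p6, minus strand, 5′ to 3′). The windows are chr5:87140341-87140590 for Ugt2b5, chr5:87254789-87255038 for Ugt2b37 and chr5:87424204-87424453 for Ugt2b38. Capitals mark AGGTCA, the core motif that nuclear receptors bind.
Ugt2b5: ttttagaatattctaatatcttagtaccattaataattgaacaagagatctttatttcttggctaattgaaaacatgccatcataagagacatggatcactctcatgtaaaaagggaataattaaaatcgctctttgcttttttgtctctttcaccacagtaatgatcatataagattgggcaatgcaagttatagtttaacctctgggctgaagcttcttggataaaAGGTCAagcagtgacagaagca
Ugt2b37: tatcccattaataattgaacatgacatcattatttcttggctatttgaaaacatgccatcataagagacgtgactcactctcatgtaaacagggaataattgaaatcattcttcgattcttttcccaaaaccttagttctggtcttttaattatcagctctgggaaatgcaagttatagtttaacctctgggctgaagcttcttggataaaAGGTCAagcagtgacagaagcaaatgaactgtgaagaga
Ugt2b38: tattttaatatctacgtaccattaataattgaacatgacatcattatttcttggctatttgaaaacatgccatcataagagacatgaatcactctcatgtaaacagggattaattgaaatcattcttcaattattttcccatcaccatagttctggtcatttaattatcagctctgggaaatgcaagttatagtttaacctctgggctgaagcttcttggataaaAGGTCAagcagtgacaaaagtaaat
With the 50 bases after the start included, Ugt2b5 and Ugt2b38 were 84.2% identical over their alignment, Ugt2b37 and Ugt2b38 86.9%, and Ugt2b1 and Ugt2b38 only 47.8%. AGGTCA was searched on both strands and began 22, 39 and 25 bases before the start of Ugt2b5, Ugt2b37 and Ugt2b38, in the same surrounding stretch. It was present in 5 of the 7 Ugt2b promoters in the table, not in those of Ugt2b1 and Ugt2b34, and in 12 of 67 member promoters against 16.3% of all 32851 promoters. Similar sequence before the start went with a 1.54-fold difference in Ugt2b5 and a 17.4-fold difference in Ugt2b38 at 24 h. A match is a description of the letters and not evidence of binding.

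The 9 Ugt1 genes, among them Ugt1a1 for bilirubin, are alternative first exons joined to common last exons on chromosome 1 between 88055411 and 88220002, and in 8 of the 9 the last 500 bases of the transcript were entirely shared with another gene. Their counts cannot be assigned to single genes with a 3′ assay, and only the sum is described. How reads shared by several genes were counted is not given in the sources used here, and if they were left out this sum covers only part of the Ugt1 RNA. It was 9.84 CPM (8.22 to 11.7) in the control, 7.94 (6.74 to 9.30), 8.64 (7.42 to 10.0) and 15.8 (13.7 to 18.0) after PHx, and 17.4 (16.4 to 18.5) in P14. The intervals of the control, 24 h and 48 h overlap, and those of 96 h and P14 lie above them. Ugt2a1 and Ugt2a2, which share their 3′ ends in full, had no UMI in any library, and the same limit applies to these 0 values.

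Among the sulfotransferases the 2 genes with the highest mean CPM over the 5 libraries differed from the control in opposite directions. Sult2a8, which sulfates bile acids, was at 1408 CPM in the control (1388 to 1428), 97.4, 118 and 637 after PHx, and 309 in P14. It was highest in the control and stood 14.5-fold lower at 24 h (13.8 to 15.2), 11.97-fold lower at 48 h (11.5 to 12.5) and 2.21-fold lower at 96 h (2.15 to 2.27), where the log2 ratio of -1.14 came to -0.95 in cells with at least 3% of UMIs from Alb, Apoa1 and Ttr. Sult1a1, which sulfates phenols, was at 174 CPM in the control, 801, 535 and 340 after PHx, and 481 in P14. It was lowest in the control and stood 4.61-fold higher at 24 h (4.41 to 4.82), 3.08-fold higher at 48 h (2.94 to 3.22) and 1.96-fold higher at 96 h (1.86 to 2.06). In barcodes of under 10% mitochondrial UMIs the log2 ratio at 48 h was 0.83, under 2-fold, in place of 1.62, and that at 96 h was -0.10 in place of 0.96. As a result Sult2a8 made up 77.4% of all Sult UMIs in the adult control, whereas Sult1a1 made up 63.1% at 24 h and 64.3% at 48 h. At 96 h Sult2a8 again held the largest share, 51.8%.

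Lower in abundance, Sult1d1, which acts on catecholamines, was at 161 CPM in the control, 286, 138 and 177 after PHx, and 268 in P14. Sult1b1, which takes thyroid hormones, varied from 24.5 CPM in P14 to 55.7 at 96 h, with 39.9 in the control. Sult5a1 was at 31.5 CPM in the control, 20.2, 5.04 and 16.4 after PHx, and 1.01 in P14, so that 48 h stood 6.24-fold below the control (5.03 to 7.81). Sult1e1, the estrogen sulfotransferase, was named after its values were seen, since it is under the filter: 404 UMIs (20.7 CPM) were found at 24 h, against 7 (0.53 CPM) in the control, 39 (1.87 CPM) at 48 h, 1 at 96 h and 14 in P14. Its ratio of 39.4 at 24 h had a wide counting interval, 18.9 to 98.6. With each cell thinned to 5000 UMIs, 6.84% of hepatocytes at 24 h held a Sult1e1 UMI and 0 of 123 lymphocyte barcodes did, which allows a share of up to 2.44%, at median depths before thinning of 19562 and 6722 UMIs.

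**Figure D3:**
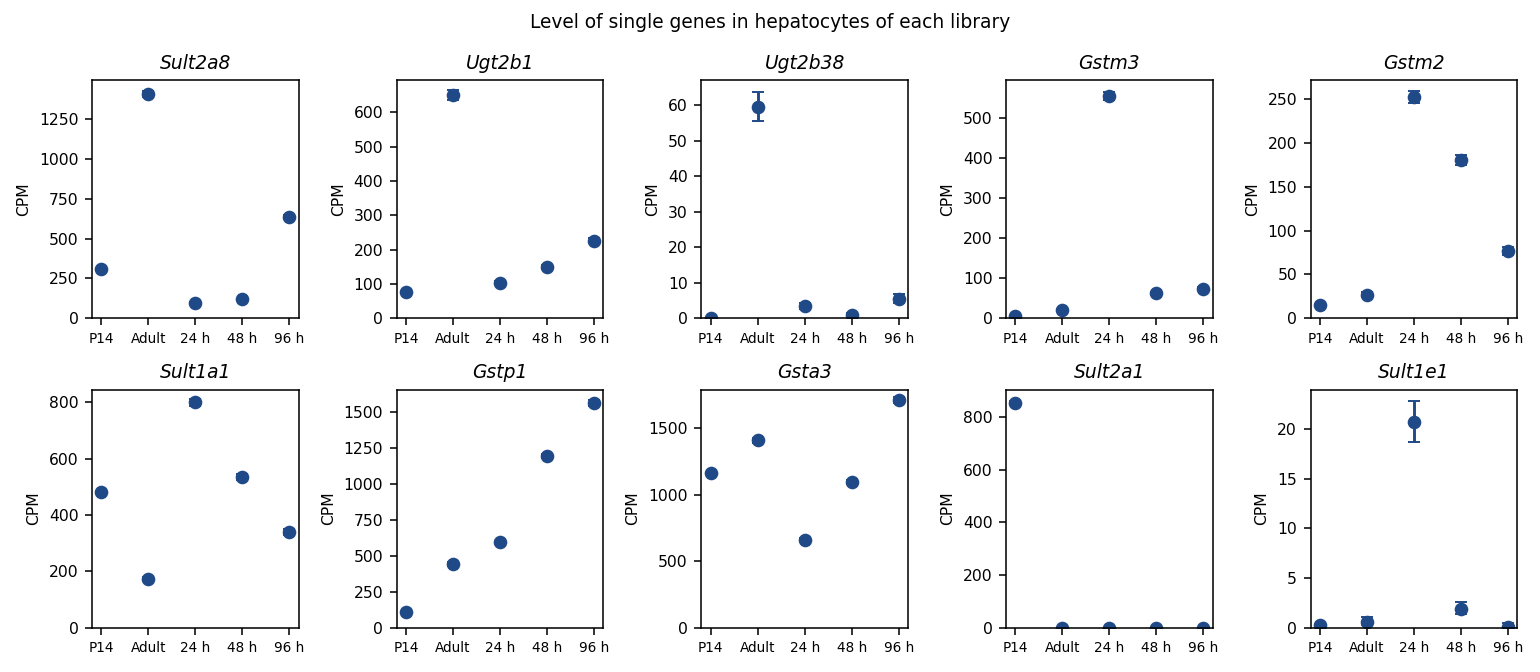
Level (CPM) of 10 conjugation genes in hepatocytes of each library; each panel has its own axis from 0, points are library values and bars exact 95% Poisson intervals. Sult2a8, Ugt2b1 and Ugt2b38 peak in the adult control, Gstm3, Gstm2, Sult1a1 and Sult1e1 at 24 h, Gstp1 and Gsta3 at 96 h, and Sult2a1 is present in P14.

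The mu class of glutathione transferases, 7 Gstm genes on chromosome 3 between 107895854 and 108045179, held the largest log2 ratio at 24 h among the 38 members. Gstm3 was at 19.8 CPM in the control, 554, 61.6 and 73.9 after PHx, and 5.06 in P14. Its 24 h level stood 28.0-fold above the control (24.8 to 31.7), and its 48 h and 96 h levels 3.11-fold (2.72 to 3.56) and 3.73-fold (3.25 to 4.29). Gstm2 was at 26.7 CPM in the control, 252, 180 and 76.6 after PHx, and 15.4 in P14. The ratios were 9.47 (8.50 to 10.6), 6.77 (6.07 to 7.57) and 2.87 (2.54 to 3.25) in that order. Gstm2 was thus lower in each later library, while Gstm3 was lower at 48 h and 96 h than at 24 h and somewhat higher at 96 h than at 48 h. In the cells of 10 to 20% mitochondrial UMIs alone the log2 ratio of Gstm2 at 96 h turned from 1.49 to -0.32, and those of Gstm3 at 48 h and 96 h dropped from 1.59 and 1.85 to 0.66 and 0.70, under 2-fold.

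Gstm1, the most abundant of the class, changed less: it was at 1094 CPM in the control, 1772, 873 and 2051 after PHx, and 304 in P14. Gstm7 was at 58.9 CPM in the control and at 55.1, 52.8 and 80.9 at the 3 times. Gstm6 was at 51.5 CPM in the control and at 65.8, 50.4 and 94.1. The class without Gstm1 amounted to 214 CPM in the control and 999 at 24 h, when Gstm3 made up 55.5% of it. None of the Gstm genes shared as much as 1% of the 60-base words in its last 500 bases with another gene. Where the reads fell and how they were assigned was not examined. With each cell thinned to 5000 UMIs, 78.9% of hepatocytes held a Gstm3 UMI at 24 h and 32.5% of lymphocyte barcodes, against 6.92% and 1.53% in the adult control at median depths of 18527 and 6557 UMIs before thinning.

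In the alpha class Gsta3, which conjugates activated aflatoxin, made up 92.0 to 98.4% of the UMIs. It was at 1408 CPM in the control, 661, 1097 and 1713 after PHx, and 1164 in P14, so that 24 h was lowest, 2.13-fold under the control (2.08 to 2.18), and 96 h was highest. The log2 ratio at 24 h, -1.09, came to -0.90 without cells holding 2 or more markers of other cell types. The other 3 genes of the class made up the rest. Gsta1 was at 0.75 CPM in the control (10 UMIs), 17.1, 13.4 and 20.8 after PHx, and 0.11 in P14, and all 3 libraries after PHx were above the other 2. Its ratios of 22.7 (12.2 to 47.8), 17.8 (9.55 to 37.6) and 27.7 (14.9 to 58.5) rest on those 10 UMIs, and 87.5% of the words at its 3′ end occur in Gsta2, Gm10639 or Gm3776 as well, so its count is uncertain. Gsta4, which clears 4-hydroxynonenal, a product of lipid peroxidation, was at 15.6 CPM in the control, 32.7, 26.6 and 49.7 after PHx, and 62.3 in P14. Its log2 ratio of 1.02 at 24 h passed 2-fold in only 9 of 17 alternative settings, and was 0.06 in barcodes of under 10% mitochondrial UMIs. Gsta2 was at 6.61 CPM in the control and at 7.79, 4.27 and 24.8 after PHx, with 39.7% of its 3′ words shared.

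The pi class was highest at 96 h. Gstp1 was at 443 CPM in the control, 594, 1195 and 1560 after PHx, and 109 in P14, which gave ratios of 1.34 (1.30 to 1.39), 2.70 (2.62 to 2.78) and 3.52 (3.42 to 3.63) after PHx. These values come with 3 limits of measurement. Gstp1 was higher in free RNA than in hepatocytes in every library, for instance 1484 against 443 CPM in the control and 5139 against 1560 at 96 h, and free RNA at its level per droplet would supply 30.8% of the control's and 14.6% of the 96 h Gstp1 UMIs. At 5000 UMIs per cell, 62.3% of control hepatocytes and 80.0% of lymphocyte barcodes held a Gstp1 UMI, and the share was also below that of lymphocyte barcodes in P14 (31.2% and 35.7%) and at 24 h (63.2% and 75.6%). These 3 shares are therefore read neither as expression in hepatocytes nor as its absence. Free RNA at its level per droplet accounts for less than all of the UMIs. The control's median depths before thinning were 18527 UMIs in hepatocytes and 6557 in lymphocyte barcodes, and expression of Gstp1 in lymphocytes was not tested. At 48 h and 96 h the hepatocyte share was the higher one, 86.8% against 59.3% and 93.9% against 89.2%. After subtraction of free RNA the log2 ratios were 0.70, 1.81 and 2.04, but in barcodes with under 10% mitochondrial UMIs, an alternative chosen after seeing the data, they were -0.77, -0.18 and 0.63, below 0 at 24 h and 48 h and under 2-fold at 96 h. Gstp3 was at 10.96 CPM in the control, 15.8, 26.4 and 53.2 after PHx, and 171 in P14. In the control and at 24 h and 48 h its share of cells was at or below that of lymphocyte barcodes, and its log2 ratio at 48 h turned to -3.49 in the 8 cells there that held fewer than 2 markers of other cell types. Gstp1 and Gstp2 share 72.3% and 86.4% of their 3′ words with each other or with Gstp-ps, and Gstp2 stayed under 5 CPM.

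The remaining glutathione transferases belong to the theta, zeta, omega and kappa classes. In the theta class, which acts on small halogenated compounds, Gstt1 was at 126 CPM in the control, 145, 140 and 184 after PHx, and 203.6 in P14. Gstt3 was at 19.1 CPM in the control and at 55.9, 19.2 and 49.1 after PHx, so that 24 h and 96 h were above the control and 48 h equal to it. Gstt2 was at 22.1 CPM and at 45.3, 33.4 and 50.8. In barcodes of under 10% mitochondrial UMIs neither gene was 2-fold above the control at 24 h, with log2 ratios of 0.44 for Gstt3 and 0.33 for Gstt2, and Gstt2 at 24 h passed it in 10 of 17 settings. Gstz1, the zeta enzyme that isomerizes maleylacetoacetate in tyrosine breakdown, was at 552 CPM in the control and at 320, 308 and 503 after PHx. Gsto1, an omega enzyme that reduces dehydroascorbate, was at 135 CPM and at 57.4, 51.1 and 92.6, which placed it 2.35-fold (2.18 to 2.53) and 2.64-fold (2.45 to 2.85) under the control at 24 h and 48 h. Its log2 ratio at 48 h, -1.39, came to -0.89 in the 8 cells there that held fewer than 2 markers of other cell types. Gstk1, found in mitochondria and peroxisomes, was at 55.9 CPM and at 30.4, 34.6 and 49.0. These 3 genes were lower at 24 h and 48 h than at 96 h.

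The P14 library differed from the adult control in sex as well as age. Xist, the RNA of the silenced X chromosome, was at 840 CPM in P14 and at most 0.07 in the adult libraries, while the Y-linked Ddx3y had no UMI in P14 and was at 112 to 140 CPM in the 4 adult libraries. Age and sex therefore cannot be told apart in any P14 value. Of the 38 members, 17 were lower in P14, against 13.4% of all genes, and 8 were higher, against 6.96%. The median log2 ratio was -0.67 for the members and -0.26 for all genes. TMM scaling moved these medians to -0.39 and 0.07, and the counts to 15 lower, against 7.39% of all genes, and 11 higher, against 11.7%. Of the 8 higher genes, 5 (Sult2a1, Sult2a2, Sult2a5, Sult2a6 and Sult1c2) passed the filter through P14 alone and so had to differ, which leaves nothing to be read from their count.

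Sult2a1, which sulfates dehydroepiandrosterone and other hydroxysteroids and is known as female-biased in mice, was at 853 CPM in P14 (55110 UMIs), with 4 UMIs at 48 h and none in the other 3 adult libraries, where 3 UMIs would be 0.15 to 0.23 CPM. Against a floor of 3 UMIs in the control it was at least 3788-fold higher in P14. Sult2a5 was at 396 CPM in P14, Sult2a6 at 70.2 and Sult2a2 at 33.0, each with no UMI in the adult libraries, and they were at least 1757-fold, 312-fold and 146-fold higher by the same floor. Sult2a2, Sult2a5, Sult2a6 and Sult2a1 share 52.2%, 39.7%, 10.2% and 8.84% of their 3′ words with other Sult2a genes, so the division among them is uncertain. Without Sult2a8 the Sult2 sum was 1363 CPM in P14 and 0.86 to 2.00 CPM in the adult libraries. Sult2a8, of the same cluster, was 4.55-fold lower in P14 than in the control (4.46 to 4.65).

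The Sult2a cluster spans chromosome 7 from 13623967 to 14493023. To set the gene that was high in the adult control beside one found only in P14 among these libraries, 250 bases before a RefSeq start are shown for Sult2a8 (chr7:14438552-14438801, minus strand, 1 of 2 starts in the table) and Sult2a5 (chr7:13623717-13623966, plus strand), 5′ to 3′ on the strand of the gene. Capitals mark AGGTCA and the HNF1 core GTTAAT, both searched on both strands, and TATAAA, searched on the gene's strand.
Sult2a8: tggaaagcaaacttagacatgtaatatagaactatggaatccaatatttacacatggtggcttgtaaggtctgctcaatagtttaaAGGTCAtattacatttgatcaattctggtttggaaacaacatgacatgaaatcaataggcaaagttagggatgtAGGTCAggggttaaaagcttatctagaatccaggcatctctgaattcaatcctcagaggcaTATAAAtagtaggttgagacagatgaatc
Sult2a5: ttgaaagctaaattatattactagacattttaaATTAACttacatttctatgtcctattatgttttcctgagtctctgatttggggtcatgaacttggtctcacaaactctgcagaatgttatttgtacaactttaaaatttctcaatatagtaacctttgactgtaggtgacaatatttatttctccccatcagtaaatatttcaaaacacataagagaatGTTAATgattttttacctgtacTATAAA
The Sult2a8 window holds AGGTCA at 164 and 90 bases and TATAAA at 29 bases before the start, and the window of its other start holds none of the 3 motifs. The Sult2a5 window holds GTTAAT at 217 (on the opposite strand) and 28 bases and TATAAA at 6 bases before the start. GTTAAT occurred in 4 of the 5 Sult2a genes with a promoter in the table, namely Sult2a3, Sult2a4, Sult2a5 and Sult2a6, but not in Sult2a8, and in 14 of the 67 member promoters against 7.1% of all promoters. TATAAA occurred in 10 of the 67 against 8.32%. No matches of different motifs overlapped, and nothing about the binding of a factor follows from these letters.

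Among the other members that were higher in P14, Gstp3 stood 15.6-fold (13.2 to 18.4), Gsta4 3.99-fold (3.47 to 4.61) and Sult1a1 2.77-fold (2.66 to 2.89) above the control. In barcodes of under 10% mitochondrial UMIs the log2 ratios of Gsta4 and Sult1a1 were 0.57 and 0.31, under 2-fold. Sult1c2 was at 23.8 CPM in P14, 1.73 in the control and 0.41 to 3.13 after PHx. The lower members were led by Ugt2b38, at least 1283-fold lower by the floor of 3 counts in P14, and Sult5a1, 31.3-fold lower (24.0 to 41.2). Gstm6 was 12.01-fold lower (10.4 to 13.9), Ugt2b1 8.45-fold (8.16 to 8.75) and Ugt3a1 6.14-fold (5.63 to 6.69). Gstm1 was 3.60-fold lower (3.53 to 3.68). Gstp1 was at 109 against 443 CPM, a log2 ratio of -2.01 that became -1.64 after subtraction of free RNA, with a share of cells under that of lymphocyte barcodes in both libraries. For the 9 Ugt genes that passed the filter the median log2 ratio in P14 was -1.98, where that of all genes was -0.26. Of these 9, 8 were lower in P14, against 13.4% of all genes, and Ugt2b36 was not, at 383 against 528 CPM. One of the 8, Ugt2b34, lay at the limit with a log2 ratio of -1.003 and passed it in 4 of 17 settings.

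Genes known to differ between the sexes in mouse liver were set beside these values. In P14, 12 of 12 male-biased genes were lower than in the control, and 7 of 7 female-biased genes that passed the filter were higher. These lists hold Gstp1 and Sult2a1, and they were chosen with earlier results of these data known. The female-biased genes had nearly no UMIs in the adult libraries, so most passed through P14 alone, which leaves nothing to be read from their count. The shares over all genes were 13.4% lower and 6.96% higher. After PHx, where all libraries carried Y-linked transcripts, 10, 11 and 9 of the 12 male-biased genes were lower at the 3 times, against 6.5%, 7.19% and 1.56% of all genes. Among them Elovl3 was at 254 CPM in the control and 69.2, 53.2 and 50.4 after PHx, and Cyp7b1 at 605 and 220, 139 and 139. Ugt2b1, Ugt2b38 and Sult2a8 were chosen as among the largest falls after PHx, so their lower levels in these libraries were fixed by that choice. A link with the male-biased genes was not tested, and both groups are measured against the same adult control library. Gstp1, the conjugation gene of the male-biased list, was above the control at 48 h and 96 h. For it the limits given above hold, on its share of cells and on barcodes of under 10% mitochondrial UMIs. Bcl6, a male-biased repressor, was at 49.0 CPM in the control, 10.0, 18.7 and 5.21 after PHx, and 2.46 in P14, and Cux2, a female-biased one, was at 26.7 CPM in P14 and at most 0.24 elsewhere. Whether these regulators bear on the conjugation genes was not tested.

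**Figure D4:**
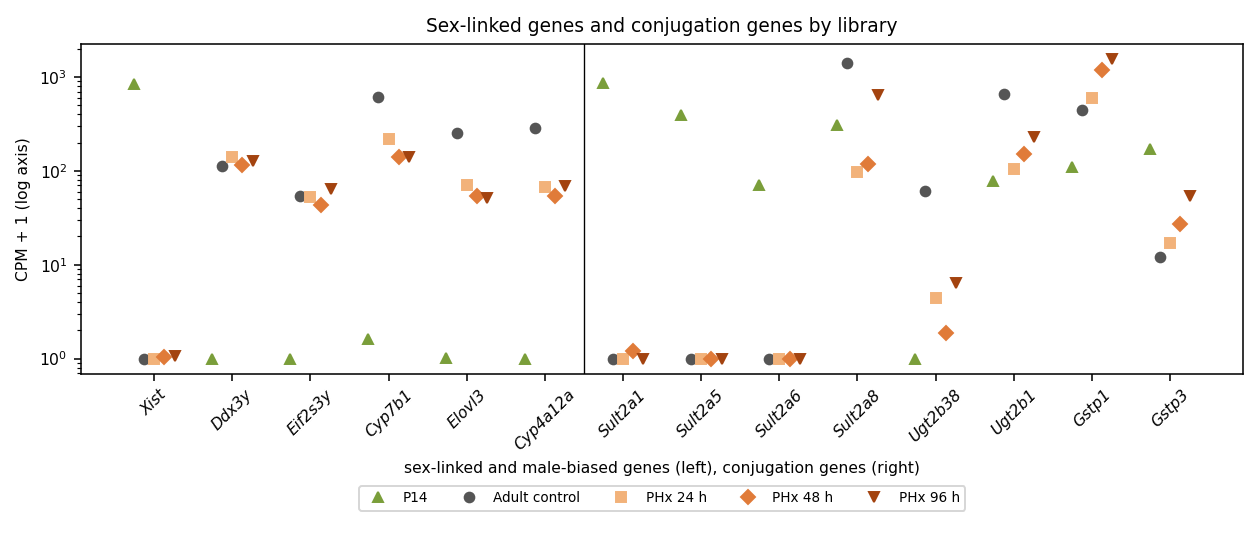
Level plus 1 (CPM, log axis) of sex-linked and male-biased genes (left of the line) and of conjugation genes (right) in the 5 libraries. P14 alone shows Xist and lacks Ddx3y and Eif2s3y; Sult2a1, Sult2a5 and Sult2a6 appear with it, while Cyp7b1, Elovl3, Cyp4a12a, Sult2a8, Ugt2b1 and Ugt2b38 are highest in the adult control.

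Position along the lobule was read within each library from 10 pericentral and 10 periportal genes, none a member, and the highest and lowest tertile of the score were compared. The tertiles are ranges of a score, not cell types. Counted at the upper and the lower limit separately, 26 to 202 cells of a library lay within 0.1 of the limit, so its total near both was larger. Between tertiles of the adult control 6 members were at least 2-fold higher in the pericentral tertile, against 1.78% of all genes, and 2 were lower, against 1.13%. The 6 were Gstm2, Gstm3, Gstm6, Gsta3, Gstt3 and Gstm1, and the 2 were Ugt2b38 and Sult5a1. Gstm2 was at 60.1 CPM in the pericentral and 6.03 in the periportal tertile of the control, a ratio of 9.97 (6.71 to 15.4), and Gstm3 at 45.6 and 5.14, a ratio of 8.87 (5.76 to 14.3). No Ugt or Sult gene was among those higher in the pericentral tertile of the control.

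This contrast within a library was smaller for the Gstm genes at 24 h and 48 h. The genes of the score changed as well. Of 9 pericentral genes that passed the filter, 3 were lower at 24 h, against 6.5% of all genes, and 3 higher, against 7.77%. Of 10 periportal genes, 5 were lower at 48 h, against 7.19%. Whether the score sorts cells alike in each library was not tested. Gstm3 was at 644 CPM in the pericentral and 527 in the periportal tertile at 24 h, a ratio of 1.22 (1.17 to 1.28), and at 83.2 and 48.3 at 48 h, a ratio of 1.72 (1.503 to 1.98). At 96 h its values were 152 and 23.8 CPM, a ratio of 6.37 (5.15 to 7.96). Gstm2 took the same course, with ratios of 1.99 (1.85 to 2.13), 2.01 (1.85 to 2.18) and 7.66 (6.11 to 9.70), and so did Gstm1, with 1.13, 1.16 and 1.77 against 2.41 in the control. The higher Gstm3 and Gstm2 levels at 24 h were thus present in both tertiles: periportal Gstm3 was 5.14 CPM in the control and 527 at 24 h. Gsta3 kept a pericentral ratio of 2.67 (2.57 to 2.77) in the control and of 3.27, 2.48 and 2.49 after PHx, with 1.90 in P14.

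Sult2a8 had a larger pericentral ratio in the libraries after PHx than in the control library: 1.502 (1.45 to 1.56) in the control, 2.42 at 24 h, 4.56 (4.02 to 5.19) at 48 h and 2.62 at 96 h. Its CPM was lower than in the control in both tertiles of each library, at 151 and 62.4 at 24 h against 1695 and 1128. Sult1a1 leaned to the periportal side, with pericentral ratios of 0.62 in the control and 0.48 at 48 h. Ugt2b38 was at 23.0 CPM in the pericentral and 103 in the periportal tertile of the control. Gstt3 was pericentral in the control, with a ratio of 2.59 (1.88 to 3.61), and below 1 in P14, 24 h and 48 h. Counts in the other libraries were 3 higher, against 2.32%, and 1 lower, against 1.13%, at 24 h; 3 and 4, against 1.07% and 1.44%, at 48 h; 5 and 2, against 4.15% and 1.31%, at 96 h; and 2 and 0, against 0.738% and 1.06%, in P14. Mitosis-positive cells made up 19.5% of the pericentral and 4.87% of the periportal tertile at 24 h, and 15.2% and 1.17% at 96 h, and their part in these ratios was not tested.

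**Figure D5:**
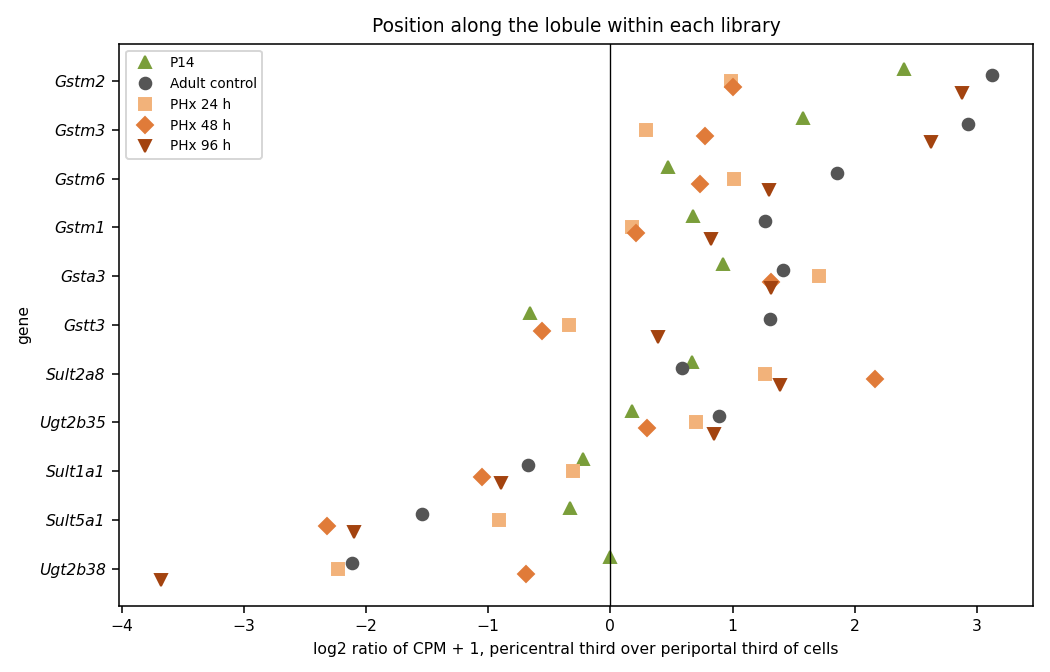
Log2 ratio of CPM + 1 between the pericentral and periportal tertile of hepatocytes within each library for 11 conjugation genes; points to the right of 0 are higher in the pericentral tertile. Gstm2 and Gstm3 are far to the right in the adult control and at 96 h and nearer to 0 at 24 h and 48 h; Sult5a1 lies left of 0 in all 5 libraries.

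Dividing cells were also set against the rest within a library. Cells with UMIs of at least 3 of 20 mitosis genes at 5000 UMIs were 11.8% of hepatocytes in P14, 0.324% in the control and 13.4%, 39.2% and 8.04% after PHx, and they were compared with cells that had none. In P14 and at 24 h no member differed by 2-fold between them, against 6.34% and 4.82% of all genes higher and 0.0922% and 0.357% lower. At 48 h none was higher, against 4.84%, and only Sult2a8 was lower, against 0.427%, at 79.2 CPM in mitosis-positive cells and 163 in the others. At 96 h, 3 were higher, against 7.12%: Gstm2 at 150 and 59.2 CPM, Gstm3 at 120 and 57.8, and Ugt2b35, named after its values were seen, at 438 and 213. Also at 96 h, 2 were lower, against 1.9%: Ugt2b38 with 1 UMI in 62 mitosis-positive cells and 63 in the 594 others, and Sult5a1 at 4.46 and 19.2 CPM. Mitosis-positive cells made up 15.2% of the pericentral and 1.17% of the periportal tertile at 96 h. The part of lobular position in these differences was not tested. The adult control had 3 such cells, too few for a comparison to be read, and its counts are not given.

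Genes that supply, reverse or accompany conjugation were taken from lists, and their counts are to be read against the same shares of all genes as those of the members: 6.5% lower and 7.77% higher at 24 h, 7.19% and 7.44% at 48 h, 1.56% and 4.31% at 96 h, and 13.4% and 6.96% in P14. Of 3 genes for the glucuronic acid donor, none passed 2-fold at 24 h or 96 h, Ugp2 was lower at 48 h, and 2 were lower in P14. Ugdh, which makes UDP-glucuronic acid, was at 197 CPM in the control, 358, 196 and 224 after PHx, and 9.46 in P14. At 48 h, when the Ugt2 sum was 2.11-fold below the control, Ugdh was level with it, whereas in P14 both were lower. Of 6 genes for the sulfate donor, none passed at 24 h or 48 h, 1 was higher at 96 h and 1 lower in P14. Papss2, which makes PAPS, was at 133 CPM in the control, 108, 89.1 and 200 after PHx, and 226 in P14. Of 6 genes of glutathione synthesis and reduction, none passed at 24 h or 96 h, 1 was lower at 48 h and 2 in P14. Glutathione reductase, Gsr, was at 125 CPM in the control, 223, 148 and 138 after PHx, and 30.03 in P14.

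The microsomal glutathione transferase Mgst1 exceeded every member at 5912 CPM in the control and 6182, 4928 and 4766 after PHx, and was at 1415 in P14. Of the 2 membrane-bound genes that passed the filter, 1 was higher at each time after PHx, and in P14 1 was higher and 1 lower. The higher one was Mgst3, at 3.38 CPM in the control, 15.3, 15.5 and 26.5 after PHx, and 29.5 in P14. Of 5 genes that remove conjugates, 1 was lower at 24 h, none passed at 48 h or 96 h, and in P14 2 were lower and 1 was higher. Of 4 exporters of conjugates, 1 was lower at 24 h, 1 at 48 h, none at 96 h and 1 in P14. Of 10 other conjugation enzymes, 2 were lower and 1 higher at 24 h, 2 lower at 48 h, 1 higher at 96 h and 5 lower in P14. Nnmt, which methylates nicotinamide, was at 281 CPM in the control, 832, 495 and 269 after PHx, and 5.11 in P14. Inmt, which methylates indolethylamines, was at 173 CPM in the control, 6.66, 47.1 and 277 after PHx, and 287 in P14. Of 15 regulators, 4 were lower and 1 higher at 24 h, 3 lower and 1 higher at 48 h, 1 lower at 96 h, and 1 lower and 3 higher in P14. The higher one after PHx was Ahr, the aryl hydrocarbon receptor, at 18.9 CPM in the control and 88.1, 43.8 and 31.1 after PHx. Of 6 targets of the stress regulator Nrf2 that are no members, 3, 1 and 2 were higher at the 3 times after PHx, against 7.77%, 7.44% and 4.31% of all genes, and 2 were lower in P14, against 13.4%. Srxn1, sulfiredoxin, was at 21.9 CPM in the control and 74.5, 37.7 and 48.9 after PHx.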

How the data were processed

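The deposited values are raw UMI counts, whole numbers for every gene and barcode, in 1 matrix for each of the 5 libraries. Software version 3.0.2 wrote them, per the file headers. They hold 6794880 barcodes each, empty droplets included. The submitters' processing notes name build mm10, bcl2fastq 2.17.1.14, Cell Ranger and Seurat 3.1 without roles; the annotation release is not given in the sources used here. Counts were summed over hepatocytes per library and divided by their non-mitochondrial total (13 mitochondrial genes left out), with a pseudocount of 1 CPM and a minimum mean of 5 CPM. Poisson intervals and conditional binomial intervals of ratios were exact (Python 3.11.15, scipy 1.17.1). A floor of 3 counts per library stood in where a library had 0. edgeR 4.0.16 served for TMM factors only. The calculation was tested on simulated data. No doublet caller was run; leaving out the 8% of cells with most UMIs was an alternative.

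Free RNA was the summed profile of barcode ranks 20001 to 60000. Lymphocyte barcodes had at least 5000 UMIs, UMIs of at least 3 T, NK or B markers and under 1% Alb, Apoa1 and Ttr; there were 112 to 590 per library. Depth was 18527 to 38923 median UMIs per hepatocyte. Positions and promoters came from RefSeq tables (GRCm38.p6; all 64 members matched, 56 had a promoter); shared 60-base words came from GENCODE transcripts. Genes named were the 4 highest members of each of 11 families, the 5 largest rises and 5 largest falls per comparison, and list genes. Outside this rule, Sult1e1, Ugt2b35 and Ugt2b37 were named after their values were seen, Ugt2a1 and Ugt2a2 for their counts of 0, and Sult2a3 and Sult2a4 for their promoters. Members and lists were chosen with earlier results of these data known.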

Additional observations from a re-analysis of the deposited data

How the results depend on the processing

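Each count was recomputed under 17 alternatives, 136 values in all, of which 12 differed from the reported count by over 1.5 times. With a minimum mean of 50 CPM, which 25 members pass, 3 were higher at 24 h, 4 at 96 h and 4 in P14, against 6.51%, 3.86% and 7.19% of all genes. In cells of 10 to 20% mitochondrial UMIs (53 to 933 cells per library), 8 were lower at 24 h and 5 at 96 h, against 8.81% and 6.61% of all genes, and the log2 ratio of Gstm2 at 96 h reversed to -0.32. Without cells holding 2 or more markers of other cell types, which leaves 8 cells at 48 h, 10 of 39 were lower at 48 h, against 27.1% of all genes, and Gstp3 at 48 h reversed to -3.49. In barcodes of under 10% mitochondrial UMIs, an alternative added after seeing the data, 11 were lower and 4 higher at 24 h, 13 lower and 3 higher at 48 h, and 6 lower and 5 higher at 96 h, where 34.7%, 31.4% and 19.3% of all genes were lower at the 3 times and 6.13%, 6.29% and 4.08% higher; Gstp1 at 48 h reversed to -0.18. The causes were not tested. Of 60 pairs of a named gene and a comparison at 2-fold or more, 57 kept their sign and 35 stayed past 2-fold in all 17. No paired analysis was possible because each group holds 1 library, so no replicate could be left out either. Depth limits genes such as Gsta1 in the control and Ugt2b38 at 48 h.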
